A study of Mus musculus with 12 samples.

Results

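The miR-26 family of the mouse consists of 5 mature miRNAs released from 3 hairpins, Mir26a-1, Mir26a-2 and Mir26b. The 5 were taken by name, without regard to their level, from the 1966 miRNAs of the count table, and all of them were among the 809 miRNAs that passed the filter on low counts. Small RNA was sequenced from the whole quadriceps of wild-type C57BL/6J mice, for which the labels name no transgene and no treatment. The groups were postnatal day 1 (P1), day 5 (P5), day 14 (P14) and day 90 (P90, adult), with 3 mice and 3 libraries at each age. The study used them to learn which miRNAs altered in Mbnl1 knockout muscle also change in normal growth, and no knockout library was analysed here. Because whole muscle was homogenized, fewer cells of a type and less RNA per cell cannot be told apart.

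A miRNA hairpin is cut into a 5p and a 3p arm, and usually one of them is loaded into an Argonaute protein, where its seed (bases 2 to 8) pairs with target mRNAs. In the miR-26 family the 5p arms are the guides. They are known for repressing Ezh2, the methyltransferase of the Polycomb complex that keeps muscle genes silent in myoblasts, and Smad1 and Smad4, transducers of BMP and TGF-beta signals, and in this way promote myogenic differentiation. Each hairpin lies in an intron of a gene of the Ctdsp group, whose products are small phosphatases of the RNA polymerase II C-terminal domain.

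The 5 mature sequences are given first, because the family differs at few bases and the reads can be assigned only where it does. They were taken from RefSeq (GRCm38.p6), in which all 5 were found, and the seed is in capitals. The prefix mmu-, for mouse, is left out below.
mmu-miR-26a-5p: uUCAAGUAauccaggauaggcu
mmu-miR-26b-5p: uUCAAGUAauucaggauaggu
mmu-miR-26a-1-3p: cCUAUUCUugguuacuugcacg
mmu-miR-26a-2-3p: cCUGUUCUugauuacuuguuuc
mmu-miR-26b-3p: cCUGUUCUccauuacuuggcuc

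The 2 guides share the seed UCAAGUA with each other and with no other mature sequence in the RefSeq table. Aligned from their 5′ ends, they were identical at 19 of 21 positions and differed by C11U and C21U (the base of miR-26a-5p first, positions counted from the 5′ end), and miR-26a-5p is 1 base longer. The 3p arms fall into 2 seed groups. MiR-26a-2-3p and miR-26b-3p carry CUGUUCU, which 2 further miRNAs hold, miR-6932-3p and miR-7039-3p, neither above 2 counts in any library. MiR-26a-1-3p alone carries CUAUUCU, through A4G against miR-26a-2-3p, from which it differs at 6 of 22 positions (16 identical). MiR-26a-2-3p and miR-26b-3p were identical at 18 of 22 positions.

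The 3 hairpins show why the guides and the 3p arms inform on different genes, and the arms are in capitals (RefSeq, GRCm38.p6, plus strand).
Mir26a-1: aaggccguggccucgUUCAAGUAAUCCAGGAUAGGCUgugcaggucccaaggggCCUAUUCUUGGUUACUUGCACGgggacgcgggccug
Mir26a-2: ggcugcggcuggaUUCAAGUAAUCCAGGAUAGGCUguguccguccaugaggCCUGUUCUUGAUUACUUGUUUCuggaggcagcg
Mir26b: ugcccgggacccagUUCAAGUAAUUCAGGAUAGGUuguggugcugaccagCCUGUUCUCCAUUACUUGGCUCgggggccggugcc

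Mir26a-1 lies at chr9:119031796-119031885, in intron 5 of 7 of Ctdspl. Mir26a-2 lies at chr10:126995530-126995613, in intron 5 of 7 of Ctdsp2. Mir26b lies at chr1:74394310-74394394, in intron 4 of 6 of Ctdsp1. Each hairpin is on the strand of its host, and intron numbers follow the GENCODE vM39 gene models. No other annotated hairpin overlaps them, and the nearest is Mir546, 2827 bases from Mir26a-2. Both miR-26a hairpins hold the same 5p arm, at chr9:119031811-119031832 and chr10:126995543-126995564, so a count of miR-26a-5p cannot be assigned to one of them. Their 3p arms differ in sequence and can be. How reads with more than one match were treated in the counting is not given in the sources used here.

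The libraries held 20363495 to 53126984 counts. MiR-1a-3p and miR-1b-5p, an annotated partner on the opposite strand of a miR-1a hairpin, together took 24.2% to 46.3% of the counts up to P14 and 79.6% to 85.3% at P90, so the share left for every other miRNA was smaller in the adult libraries. Levels are therefore given on 2 scales. CPM of the library total (counts scaled to the same total in every library) carry no further correction, whereas normalized CPM use TMM factors, which were 1.24 to 1.73 at P1, P5 and P14 and 0.247 to 0.384 at P90. The skeletal muscle markers miR-1a-3p, miR-133a-3p and miR-206-3p were present at every age, and the lowest library value among them was 374 CPM of miR-206-3p at P90. All 12 marker miRNAs of blood, endothelium, smooth muscle, neurons, liver and epithelium were also detected and passed the filter, and their summed share was 3.28% to 3.95% of the counts at P1 and P5, between 4.71% and 5.18% at P14 and between 2.12% and 2.87% at P90. In normalized CPM the same sum went the other way, from 28216 to 34282 at P14 up to 66708 to 86005 at P90. Most of it was the smooth muscle marker miR-143-3p, at 22631 ± 2731 at P14 and 64899 ± 8308 at P90. The endothelial marker miR-126a-3p came next, at 7878 ± 586 and 10935 ± 1672, so the sum says little about the other cell types. Base composition moved with age as well. In each P14 library the deviation of a miRNA from its mean over the 12 libraries rose by 0.377 to 0.561 (log2) for each 10 points of GC content, and in each P90 library it changed by between -0.591 and -0.38, compared with -0.0123 to 0.0749 at P1 and P5. The part of these shifts in the results below was not tested. For the miR-26 arms and their ratios, values with the GC trend removed are given where they change a call or a direction between 2 ages. For the test over the 4 ages together only the number of calls is given.

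MiR-26a-5p was one of the most abundant miRNAs of the quadriceps throughout. It held 1.64%, 2.08% and 1.73% of the counts of the 3 P1 libraries, 1.49%, 1.36% and 1.67% at P5, 2.63%, 2.85% and 2.62% at P14 and 1.72%, 1.48% and 1.16% at P90. By mean share it ranked 8th at P1, 11th at P5, 8th at P14 and 5th at P90. The share was highest at P14, where no library overlapped those of another age. MiR-26b-5p, the guide of the third hairpin, was several times less abundant. It held 0.312%, 0.376% and 0.33% of the counts at P1, 0.314%, 0.293% and 0.361% at P5, 0.214%, 0.161% and 0.209% at P14 and 0.152%, 0.143% and 0.115% at P90, and ranked 52nd, 50th, 68th and 29th. Its share was thus lower at P14 and P90 than in any library of P1 and P5, while its rank was best in the adult.

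The 3p arms were rare. MiR-26a-2-3p had 309 to 367 counts per library at P1 and P5, between 154 and 256 at P14 and between 181 and 191 at P90. MiR-26b-3p had 108 to 156 counts at P1 and P5, between 170 and 318 at P14 and between 88 and 157 at P90. MiR-26a-1-3p had 15, 23 and 42 counts at P1, 20, 23 and 24 at P5, 8, 25 and 7 at P14 and 0, 3 and 2 at P90. At P90 it was therefore at or under 3 counts in all libraries, the limit that a count of 0 allows.

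**Figure D1:**
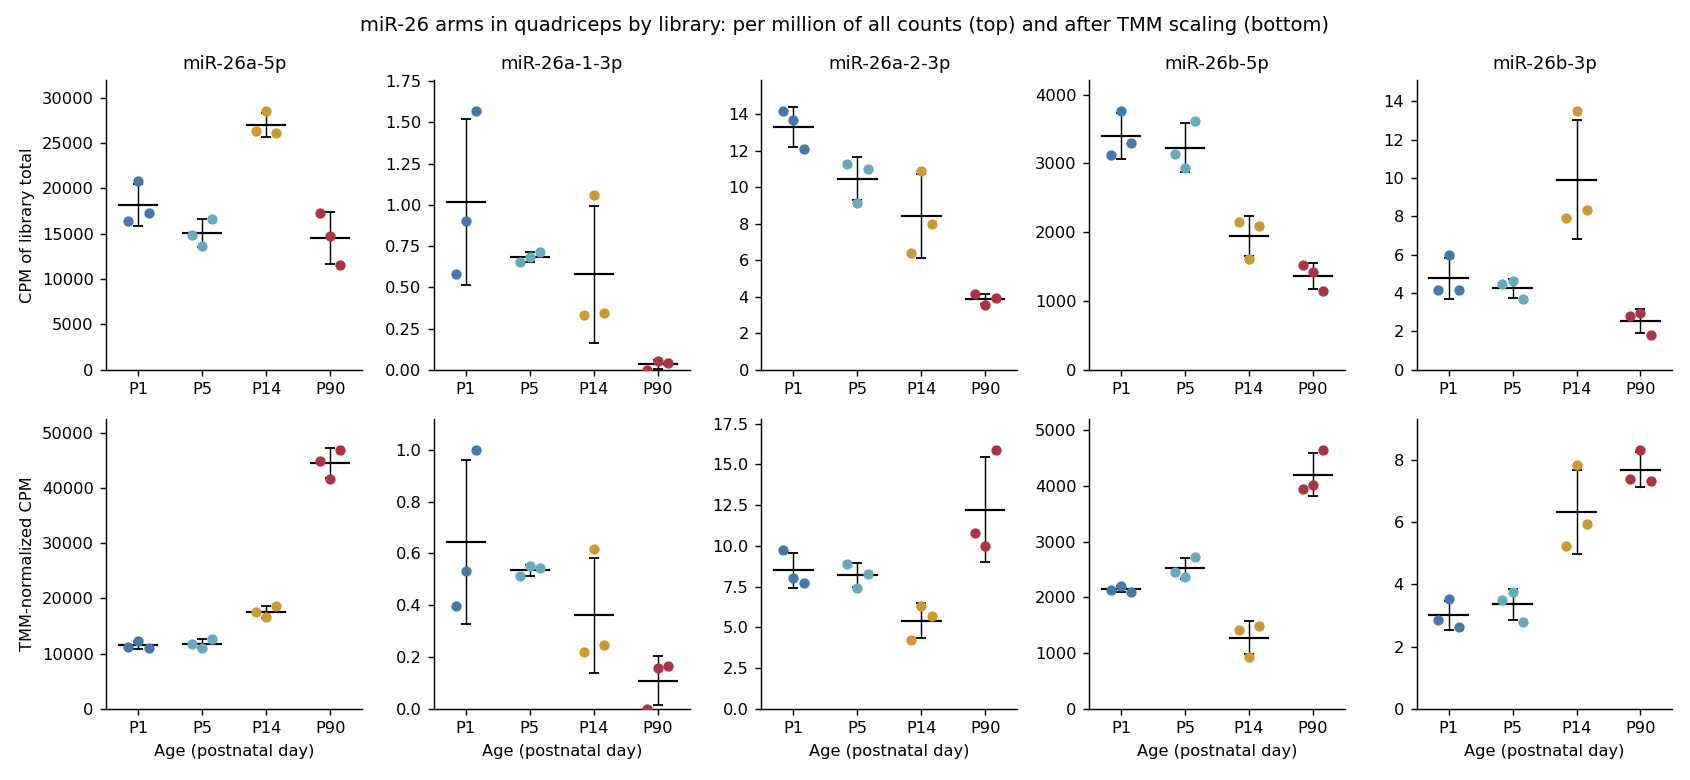
Level of each miR-26 arm in every library, by age (postnatal day). Each point is 1 library, bars are the mean and SD of 3 libraries, the upper row gives CPM of the library total and the lower row TMM-normalized CPM. MiR-26a-5p was highest at P14 on the first scale and at P90 on the second, and miR-26a-1-3p was lowest at P90 on both.

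As a family the 5 arms made up 2.16% ± 0.266 of the P1 counts (mean ± SD, n = 3), 1.83% ± 0.188 of those at P5, 2.9% ± 0.105 of those at P14 and 1.59% ± 0.303 of those at P90. Nearly all of this was miR-26a-5p. The ages differed beyond the spread of their libraries (exact permutation test over 15400 partitions of the libraries into 4 groups of 3, p = 0.0013, adjusted p = 0.00325 over 5 tests). Its P14 libraries lay above all others, at 2.83% to 3.02%. The P90 libraries, at 1.27% to 1.88%, lay below the P1 libraries by 0.57 percentage points on average, but this order depended on the scaling. With the counts of miR-1a-3p and miR-1b-5p left out of the total the family was 5.48 percentage points higher at P90 than at P1, and in TMM-scaled libraries 3.50 points higher.

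Between P1 and P5 no arm of the family passed the test. Normalized CPM of miR-26a-5p were 11214, 12227 and 11057 at P1 and 11671, 11028 and 12604 at P5, so the libraries of the 2 ages overlapped, as they did for the 3p arms. Those of miR-26b-5p did not overlap, at 2107 to 2212 and 2370 to 2734. By edgeR, 0 of 5 arms were called (compared with 4.45% of all miRNAs tested), with log2 fold changes (log2FC) of 0.03 for miR-26a-5p (SE 0.11, Padj = 0.957), 0.23 for miR-26b-5p (Padj = 0.56), 0.15 for miR-26b-3p (Padj = 0.834), -0.05 for miR-26a-2-3p (Padj = 0.974) and -0.26 for miR-26a-1-3p (Padj = 0.933). At an unadjusted p under 0.05, and with DESeq2, the number was 0 as well. A miss of this test at 3 libraries each does not show that the levels were equal.

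Between P5 and P14 the 2 guides parted. MiR-26a-5p rose from 11767 ± 793 normalized CPM at P5 to 17435, 16547 and 18613 in the P14 libraries, a log2FC of 0.58 (SE 0.11, edgeR, Padj = 0.000597). MiR-26b-5p fell over the same days. Its normalized CPM were 2464, 2370 and 2734 at P5 and 1419, 932 and 1485 at P14, with a log2FC of -0.98 (SE 0.16, Padj = 0.000121). No P14 library overlapped a P5 library for either guide. Both directions held under each of the other scalings and with the GC trend removed, where miR-26b-5p fell by less (log2FC -0.39, Padj = 0.0292).

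In the main fit miR-26b-3p moved against the guide of its hairpin at this step. MiR-26a-2-3p moved against miR-26a-5p, whose counts cannot be assigned to Mir26a-2 or Mir26a-1. MiR-26b-3p, from the hairpin whose guide fell, rose from 3.51, 3.74 and 2.8 normalized CPM at P5 to 5.23, 7.84 and 5.94 at P14 (log2FC 0.92, SE 0.23, Padj = 0.00424). MiR-26a-2-3p fell from 8.88, 7.41 and 8.29 to 4.24, 6.31 and 5.7 (log2FC -0.60, SE 0.23, Padj = 0.0433), although its call was lost without any one of 5 libraries, under 2 other scalings, with the 2 ages alone (log2FC -0.50, Padj = 0.0882) and with the GC trend removed (log2FC -0.10, Padj = 0.785). MiR-26a-1-3p did not pass the test (log2FC -0.55, SE 0.70, Padj = 0.57). In total 4 of 5 arms were called, 2 higher and 2 lower, compared with 44.4% of all miRNAs tested (18% higher and 26.3% lower), and the median log2FC was -0.55 for the family and -0.07 for all miRNAs.

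Between P14 and P90 both guides rose on the TMM scale. MiR-26a-5p reached 44876, 41614 and 46875 normalized CPM at P90 (log2FC 1.34, SE 0.11, edgeR, Padj = 3.3e-08) and miR-26b-5p reached 3951, 4019 and 4653 (log2FC 1.72, SE 0.16, Padj = 1.2e-07). MiR-26a-2-3p rose to 10.8, 10 and 15.9 (log2FC 1.17, SE 0.23, Padj = 0.000382). The values of miR-26b-3p, 7.37, 8.32 and 7.33 at P90, overlapped those at P14 (log2FC 0.28, SE 0.23, Padj = 0.316), although it was called higher with RLE factors (0.64, Padj = 0.0292), upper-quartile factors (1.85, Padj = 6.3e-06) and DESeq2 (0.63, Padj = 0.0345). The direction of this step was relative to the scaling: with library totals alone the log2FC was -0.89 for miR-26a-5p, -0.51 for miR-26b-5p, -1.12 for miR-26a-2-3p and -1.97 for miR-26b-3p. With the GC trend removed, miR-26a-5p still rose by 0.69 (Padj = 7.8e-05) and miR-26b-5p by 0.37 (Padj = 0.0252), whereas miR-26a-2-3p no longer passed the test (log2FC 0.07, Padj = 0.815). In all, 3 of 5 arms were called, each of them higher, while 59.1% of all miRNAs tested were called, 22.4% higher and 36.7% lower, and the family median of 1.17 stood beside -0.55 for all miRNAs.

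From birth to adulthood miR-26a-5p had the largest gain of the family. It increased from 11499 ± 635 normalized CPM at P1 to 44455 ± 2656 at P90 (log2FC 1.95, SE 0.11, edgeR, Padj = 2.7e-10). MiR-26b-5p, with the same seed, went from 2151 ± 54.5 to 4208 ± 387 (log2FC 0.97, SE 0.16, Padj = 5.1e-05). MiR-26b-3p rose from 3.01 ± 0.463 to 7.68 ± 0.562 (log2FC 1.35, SE 0.24, Padj = 0.000101), and miR-26a-2-3p, at 8.5 ± 1.06 and 12.2 ± 3.21, did not pass the test (log2FC 0.52, SE 0.23, Padj = 0.054). The latter was called with RLE factors (log2FC 0.85, Padj = 0.00316), upper-quartile factors (2.38, Padj = 6.3e-08), DESeq2 (0.83, Padj = 0.00112) and the 2 ages alone (0.64, Padj = 0.0201). Among all miRNAs tested, 88.5% had a lower log2FC than miR-26a-5p, 81.1% a lower one than miR-26b-3p and 75.8% a lower one than miR-26b-5p. The signs depended on the scaling. With library totals alone miR-26a-5p was lower at P90 by a log2FC of -0.32 (Padj = 0.0587), miR-26b-5p of -1.32 and miR-26b-3p of -0.91, while the median of all miRNAs was -2.97 in place of -0.72. With the GC trend removed the rise of miR-26a-5p was 1.57 (Padj = 5.4e-09) and that of miR-26b-5p was 0.18 (Padj = 0.243).

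**Figure D2:**
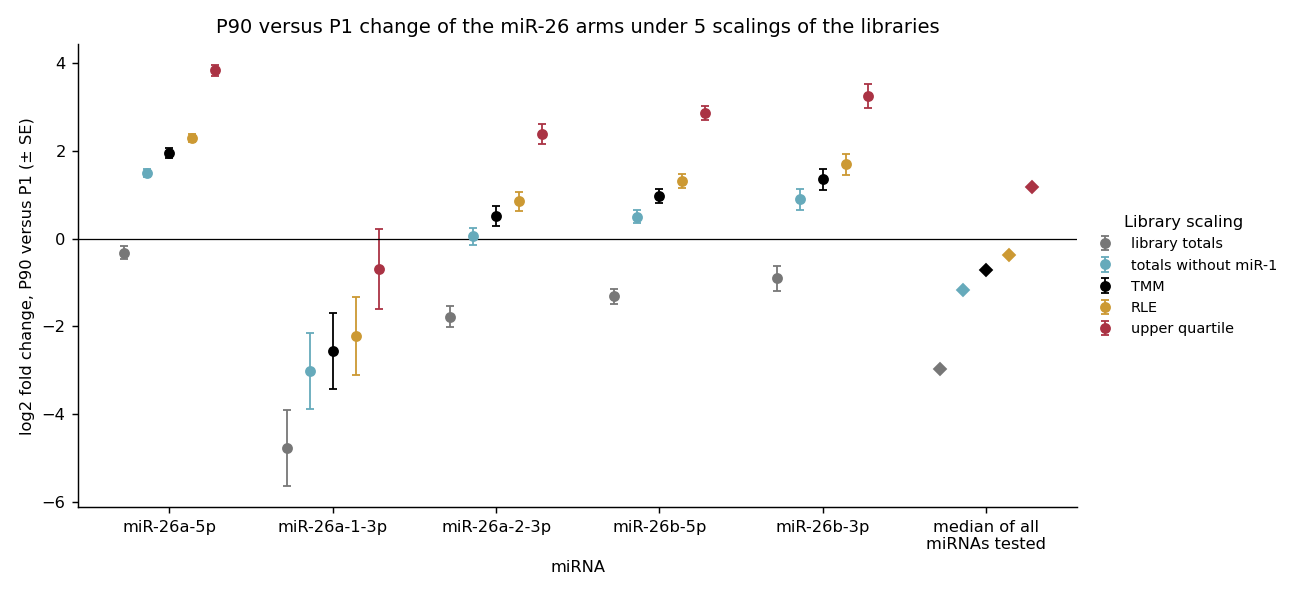
Change from P1 to P90 (log2FC with SE) of each miR-26 arm under 5 ways to scale the libraries, with the median of all miRNAs tested at the right. Under library totals alone all 5 arms were below 0, and under the other scalings miR-26a-5p, miR-26b-5p, miR-26b-3p and miR-26a-2-3p were above it. MiR-26a-5p and miR-26a-2-3p stayed above the median of all miRNAs in each. MiR-26b-5p and miR-26b-3p lay above it at least under TMM and library totals.

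MiR-26a-1-3p was the member that moved down. As its P90 libraries were at or under 3 counts, each was set to a floor of 3 counts to size the fall. The P1 mean was then 3.28-fold the floor in TMM-normalized CPM and 16.3-fold in CPM of the library total. For the P14 mean the values were 1.84 and 9.32. These compare means, although normalized CPM ran from 0.397 to 1 at P1 and from 0.22 to 0.616 at P14. They also leave out counting error at P90, so they are not lower bounds. EdgeR called it for P90 versus P1 (Padj = 0.0167), but the call was lost without P1 replicate 3, which held 42 of the 80 counts at P1, without P90 replicate 1, and with upper-quartile factors (Padj = 0.499). MiR-26a-1-3p passed the filter on low counts only through the younger libraries, so a call at P90 could go only downward. The same holds for P90 versus P5. With it, 4 of 5 arms were called from P1 to P90, 3 higher and 1 lower (miR-26a-1-3p). The background was 66.4% of all miRNAs tested (25.2% higher and 41.2% lower). The family median was 0.97 beside -0.72 for all miRNAs, and it is the same with miR-26a-1-3p at the floor of 3 counts.

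The other comparisons add little to this course. For P14 versus P1, 4 of 5 arms were called (49.1% of all miRNAs). For P90 versus P5 all 5 were (63.2% of all miRNAs), 4 higher and miR-26a-1-3p lower. As the call of miR-26a-1-3p could go only downward, it adds no support to that number. With the GC trend removed the calls numbered 2 and 3, the latter again with miR-26a-1-3p among them. MiR-26b-5p then no longer passed for P14 versus P1 (log2FC -0.19, edgeR, Padj = 0.255, in place of -0.75). Neither did miR-26a-2-3p (log2FC -0.18, Padj = 0.584, in place of -0.65, Padj = 0.026). For fits with the GC trend removed the share of all miRNAs called is not given. For P90 versus P5 the count was 4 with RLE or upper-quartile factors, with library totals and with DESeq2, and 3 with no filter and without P5 replicate 1 or P5 replicate 3. Of all miRNAs, 234 were called higher and 286 lower with RLE factors, and 407 and 183 with upper-quartile factors. With library totals the numbers were 34 and 606, and in the main fit 201 and 310. MiR-26a-1-3p lost its call for P90 versus P5 with RLE factors (Padj = 0.0582) and with DESeq2 (Padj = 0.0669). The 2 comparisons share libraries with those above. For any difference between the 4 ages, 4 of 5 arms were called (72.4% of all miRNAs; 2 of 5 with the GC trend removed), with an edgeR Padj of 1.9e-10 for miR-26a-5p, 7.7e-07 for miR-26b-5p, 0.000117 for miR-26b-3p and 0.00242 for miR-26a-2-3p, and of 0.0764 for miR-26a-1-3p.

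Ratios of 2 arms counted in the same library do not depend on the scaling, so they were used to ask whether the family kept its proportions. Arms of different sequence can enter a library with different efficiency, and for this reason each ratio was read only against itself at another age. Over 4 such ratios and the family share, p-values from the exact permutation test were adjusted together. With 3 libraries each, an exact permutation test of 2 ages cannot go below p = 0.1, so for pairs of ages only the separation of the libraries is given.

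For each 100 counts of miR-26b-5p there were 525, 553 and 525 counts of miR-26a-5p at P1 and 474, 465 and 461 at P5. At P14 there were 1229, 1775 and 1254, and at P90 there were 1136, 1035 and 1007. The balance of the 2 guides with the same seed thus shifted towards miR-26a-5p between P5 and P14, by 3-fold (log2 difference 1.58), and stayed high in the adult. No library of one age overlapped another age. Of the 15400 partitions none but the observed one separated the ages as far (exact permutation test, p = 6.5e-05, the smallest that it can give, adjusted p = 0.000325). With the GC trend removed the mean ratios of the 2 counts were 5.23, 4.62, 11.2 and 13.8, so the rise between P5 and P14 held while P90 then lay above P14 (log2 difference 0.31 in place of -0.40).

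The 3p arms of the 2 miR-26a hairpins, added together, became rarer relative to their guide. For each 100 counts of miR-26a-5p there were 0.0902, 0.0702 and 0.0791 counts of 3p at P1 and 0.0805, 0.0722 and 0.0701 at P5. There were 0.0256, 0.0418 and 0.0319 at P14 and 0.024, 0.0245 and 0.0343 at P90. All libraries of P14 and P90 were below all of P1 and P5, and the step from P5 to P14 was a 2.28-fold drop (exact permutation test over the 4 ages, p = 0.00292, adjusted p = 0.00365). The GC trend changed this little, with a log2 difference of -1.02 in place of -1.19.

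Mir26b went the other way. Per 100 counts of miR-26b-5p there were 0.134, 0.16 and 0.126 counts of miR-26b-3p at P1, 0.142, 0.158 and 0.102 at P5, 0.369, 0.84 and 0.4 at P14, and 0.187, 0.207 and 0.158 at P90. The ratio was 3.77-fold higher at P14 than at P5 with no overlap, and P14 replicate 2 stood above the other P14 libraries (exact permutation test over the 4 ages, p = 0.00253, adjusted p = 0.00365). The 2 arms of this hairpin differ most in base composition, with a GC content of 33.3% for the 5p and 50% for the 3p arm. After the GC trend was removed, the P14 libraries lay at 0.239 to 0.44 and the P90 libraries at 0.291 to 0.411, above 0.104 to 0.16 at P1 and P5. The rise between P5 and P14 was then still seen, and the fall after P14 was not.

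**Figure D3:**
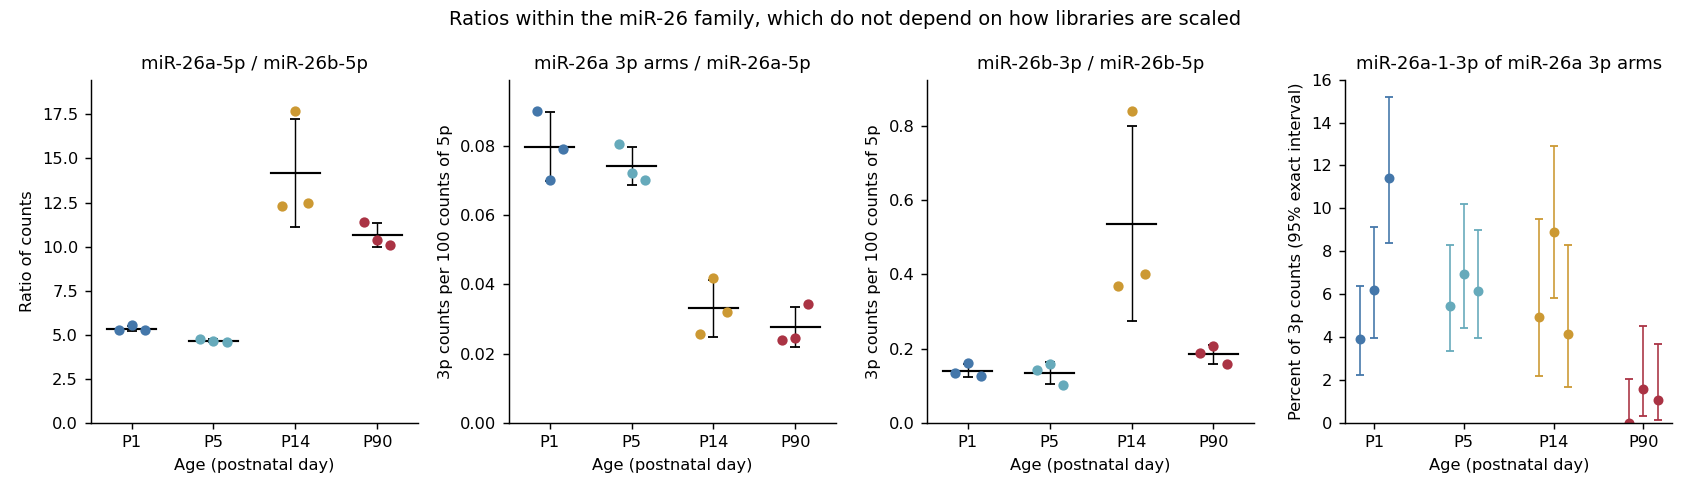
Ratios of miR-26 arms within each library, by age (postnatal day). Points are libraries, bars in the first 3 panels are the mean and SD of 3 libraries, and bars in the last panel are exact 95% intervals of a share for counting error only. The ratio of miR-26a-5p to miR-26b-5p rose from 4.61 to 4.74 at P5 to 12.3 to 17.7 at P14, while 3p per 5p fell for miR-26a and rose for miR-26b.

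The 3p arms also allow counts of the 2 miR-26a hairpins to be told apart. Mir26a-1 of Ctdspl gave 3.93%, 6.18% and 11.4% of the miR-26a 3p counts at P1, 5.45%, 6.93% and 6.14% at P5 and 4.94%, 8.9% and 4.12% at P14. At P90 it gave 0 of 181 counts, which allows a share of up to 1.66% by the floor of 3 counts (exact 95% interval 0% to 2.02%), and 1.56% (exact 95% interval 0.323% to 4.5%) and 1.04% (0.126% to 3.69%) in the other libraries. Most 3p counts at every age were those of Mir26a-2 of Ctdsp2, and the share of Mir26a-1 was below that of all earlier libraries at P90. Summed over the libraries it was 5 of 566 counts, against 80 of 1121 at P1, of which P1 replicate 3 held 42. Exact 95% intervals of P14 replicate 1 (2.16% to 9.5%) and P14 replicate 3 (1.67% to 8.3%) overlapped those of P90 replicates 2 and 3. The log2 ratio of miR-26a-2-3p to miR-26a-1-3p (0.5 added to each count) differed between the ages (exact permutation test, p = 0.0168, adjusted p = 0.0168). Its value in P90 replicate 1, 8.50 beside 5.76 and 6.26, was set by the 0.5 added to a count of 0. The separation of P90 held with the GC trend removed. The intervals and floors cover counting error only.

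On the TMM scale, with the GC trend left in, the guides followed different groups of miRNAs. Among 204 miRNAs with a mean of at least 100 normalized CPM, those with the profile most like miR-26a-5p over the 12 libraries were miR-30e-3p (r = 0.987), miR-30f (r = 0.987) and miR-181a-2-3p (r = 0.986). MiR-30f is annotated opposite miR-30e-3p and had nearly the same counts, so whether they are separate signals is uncertain. MiR-30e-3p increased from 100.4 ± 2.7 normalized CPM at P1 and 127 ± 13.3 at P5 to 224 ± 13.3 and 633 ± 57.4 at P14 and P90. MiR-181a-2-3p had 22.9 ± 0.292, 23.2 ± 4.16, 68.8 ± 5.15 and 306 ± 21 in the order of the ages. Each had its highest libraries at P90, as miR-26a-5p did.

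The profiles most like miR-26b-5p were let-7f-5p (r = 0.968), miR-101b-3p (r = 0.965) and miR-101a-3p (r = 0.956). All 3 dipped at P14. Let-7f-5p had 13607 ± 387, 17549 ± 112, 11085 ± 1990 and 27226 ± 3503 normalized CPM in the order of the ages, and miR-101a-3p had 463 ± 35, 607 ± 55.6, 236 ± 50.2 and 2402 ± 791. The 2 groups also differ in GC content. It is 31.8% for let-7f-5p, 33.3% for miR-101a-3p and 42.1% for miR-101b-3p, beside 33.3% for miR-26b-5p. In the group of miR-26a-5p (40.9%) it is higher, 45.5% for miR-30e-3p and miR-30f and 59.1% for miR-181a-2-3p. The part of GC content in this grouping was not tested. Within the family r was 0.577 between the 2 guides, 0.839 between miR-26a-5p and miR-26b-3p and 0.108 between the 2 arms of Mir26b. These correlations describe 12 libraries that share the age groups, the TMM factors and the composition of the adult libraries. They were taken from values with the GC trend left in.

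**Figure D4:**
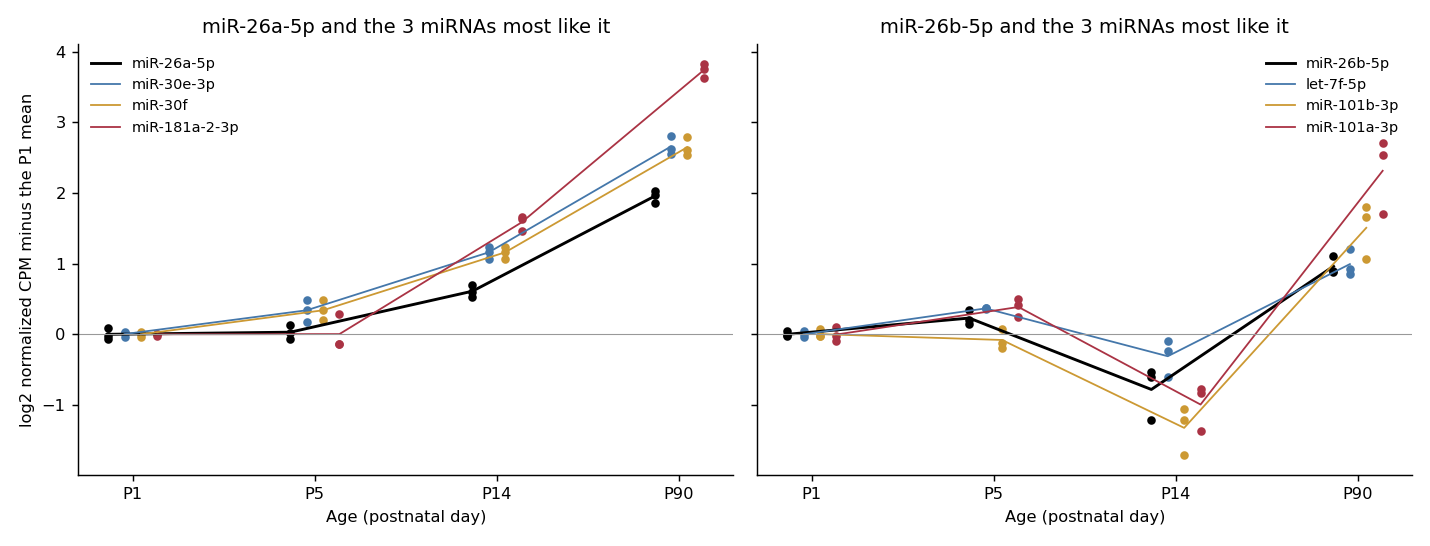
Log2 normalized CPM minus the P1 mean, by age (postnatal day), of miR-26a-5p (left) and miR-26b-5p (right) with the 3 miRNAs most like each. Points are libraries and lines join the means of 3 libraries. The left group was higher at P14 than at P1 and the right group was lower at P14, under TMM scaling with the GC trend left in. With the GC trend removed, miR-26b-5p did not pass for P14 versus P1 (log2FC -0.19, edgeR, Padj = 0.255, in place of -0.75).

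MiR-26 shares its best known muscle target, Ezh2, with other miRNAs, and 6 of these were examined. For this and the lists that follow, the shares of all miRNAs tested that were called higher and lower are 18% and 26.3% from P5 to P14, 22.4% and 36.7% from P14 to P90, and 25.2% and 41.2% from P1 to P90. None was called between P1 and P5. From P5 to P14, 1 was called higher and 2 lower (median log2FC -0.34). The lower ones were miR-101a-3p (log2FC -1.36, SE 0.22, edgeR, Padj = 0.000126) and miR-101b-3p (log2FC -1.22, SE 0.20, Padj = 0.000126), the miRNAs best known for repressing Ezh2 in tumours, and the higher one was miR-217-5p (log2FC 1.29, SE 0.47, Padj = 0.0385). On the TMM scale miR-26a-5p and the miR-101 pair thus moved in opposite directions over this step. For miRNAs of the lists, values with the GC trend removed or under another scaling are not given. From P14 to P90, 2 were called higher, miR-101a-3p (log2FC 3.34, SE 0.24, Padj = 4.1e-09) and miR-101b-3p (log2FC 2.84, SE 0.21, Padj = 6.4e-09), and miR-214-3p was called lower (log2FC -2.13, SE 0.21, Padj = 2.6e-07), with a list median of 0.10. From P1 to P90, 3 were called higher and 1 lower (median 0.62): miR-101a-3p, miR-101b-3p and miR-124-3p rose and miR-214-3p fell.

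Of 7 muscle miRNAs, none was called between P1 and P5 (median log2FC 0.10). From P5 to P14, 2 were higher and 3 lower (median -0.27). From P14 to P90, 3 were higher and 2 lower (median 0.11), and from P1 to P90 the numbers were 3 and 3 (median 0.28). Like the miR-26 hairpins, those of 753 arms in the table lie in an intron of a protein-coding gene on its strand. Of these 753 arms 267 were tested, with 42 called higher and 54 lower from P5 to P14 (median 0.20), 59 and 72 from P14 to P90 (median -0.40), 59 and 82 from P1 to P90 (median -0.36) and 2 and 3 from P1 to P5 (median -0.01). The markers of other cell types moved too. From P5 to P14, 2 of 12 were called higher and 4 lower (median -0.47), from P14 to P90 the numbers were 7 and 0 (median 0.74), and from P1 to P90 they were 5 and 4 (median -0.04). Their part in the levels of the miR-26 arms was not tested.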

How the data were processed

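Libraries were prepared from total RNA of the quadriceps (NEXTflex Small RNA-Seq Kit) and sequenced to 20363495 to 53126984 counts each. The deposited values are counts per miRNA. For these the authors kept reads of 10 to 35 nt with cutadapt 1.18, aligned them to GRCm38 with Bowtie2 2.4.1 and counted them with featureCounts 2.0.1 on miRBase 22 (the submitters' processing notes also name DESeq2 1.30.1, which does not alter the counts). Strand and multiple-match settings are not given in the sources used here, and no molecular identifiers enter the counts.

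The raw counts of 1966 miRNAs were used, with 0 columns left out. Replicates differed beyond counting noise (chi-square per degree of freedom 179 to 1195). One edgeR 4.0.16 quasi-likelihood model in R 4.3.3 (filterByExpr, TMM, 4 age means, 12 libraries) was fitted to the 809 miRNAs kept, with 2-sided F-tests and Benjamini-Hochberg adjustment over all of them, and Padj under 0.05 was a call. It was tested on simulated data. Ratios used scipy 1.17.1, 0.5 added to each count, and 15400 partitions of the libraries, with shares in exact binomial intervals (95%). The floor was 3 counts.

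Named miRNAs were the 5 members, the 3 best correlated with each guide (mean of at least 100 normalized CPM), and the lists. The members and all lists were chosen with earlier results of these data known. The alternatives were other scalings (RLE, upper quartile, library totals with and without miR-1a-3p and miR-1b-5p), no filter, DESeq2 1.42.0, the 2 ages alone, a replicate block, removal of the GC trend (RefSeq sequences of 1675 miRNAs, 85% of those tested; added for the ratios after the data were seen), other pseudocounts for the ratios, and each library left out.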

Additional observations from a re-analysis of the deposited data

How the results depend on the processing

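Of 660 recomputed log2FC of members, 580 kept their direction and their side of the threshold. Scaling mattered most: with library totals alone the log2FC for P5 versus P1 became -0.27 (miR-26a-5p), -0.07 (miR-26b-5p) and -0.16 (miR-26b-3p), and for P90 versus P14 -0.89 (miR-26a-5p), -1.12 (miR-26a-2-3p), -0.51 (miR-26b-5p) and -1.97 (miR-26b-3p), with 5 arms called in place of 3. For P90 versus P5 it was -0.05, -1.44, -1.24 and -0.75 for the same 4 arms in that order, and for P90 versus P1 -0.32, -1.78, -1.32 and -0.91. In that setting 18 of all miRNAs were called higher and 628 lower for P90 versus P14, compared with 181 and 297 in the main fit. Totals without miR-1a-3p and miR-1b-5p gave -0.09 for miR-26a-5p (P5 versus P1), and the family share at P90 minus P1 was 5.48 points with this total and 3.50 points with TMM scaling. With the GC trend removed, 2 arms were called for any age and for P14 versus P1 and 3 for P90 versus P5, where miR-26a-2-3p was at -0.03 and miR-26b-5p at -0.01, and miR-26a-2-3p was at -0.11 for P90 versus P1. The replicate block together with GC removal gave 2 and 3 calls for P14 versus P1 and P90 versus P5, -0.03 and -0.02 for the latter arms, and -0.11 for P90 versus P1. With no filter 3 arms were called for P90 versus P5. For the fits with GC removal, the replicate block or no filter, the share of all miRNAs called is not given. The causes were not tested.

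Leaving out 1 library each time moved the P5 versus P1 log2FC from -0.03 to 0.08 for miR-26a-5p, from -0.53 to 0.19 for miR-26a-1-3p and from -0.13 to 0.04 for miR-26a-2-3p, none of them called. The calls for P90 versus P5 numbered 3 to 5, with 3 without P5 replicate 1 or P5 replicate 3. Beside the calls named in the report, those lost were of miR-26a-1-3p and miR-26a-2-3p for P90 versus P5 and of miR-26a-2-3p for P14 versus P1, and without P5 replicate 2 or P90 replicate 2 miR-26a-2-3p was called for P90 versus P1.

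The replicate numbers did not pair the libraries, as same-numbered libraries of different ages correlated between -0.344 and 0.237 in their deviations. With the replicate block the log2 ratio of miR-26a-2-3p to miR-26a-1-3p, 3.04 for P90 minus P1, no longer passed (exact permutation test, adjusted p = 0.0608), and miR-26a-2-3p lost its calls for P14 versus P5 (Padj = 0.0611) and P90 versus P5 (Padj = 0.0561). Depth limits miR-26a-1-3p most, with 0 to 42 counts per library.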
